A study of Mus musculus with 6 samples.

Results

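The genes described here are 38 members of the integrated stress response and of protein folding and degradation in the endoplasmic reticulum (ER), taken by symbol from a table of 56448 genes. They form a branch around the transcription factor ATF4 with 21 members and an ER branch with 17 members, and the branches are described apart. They were measured by messenger RNA sequencing in 4T1, a mouse mammary carcinoma line, in 3 libraries labelled in9 and 3 labelled LV2. According to the series, lentivirus was used to knock down the microRNA miR-9 stably in one group, and the other served as control. The labels spell out neither in9 nor LV2 and do not say which is the control, so each difference is given as in9 minus LV2, by those names. Both groups are 4T1 in medium with fetal bovine serum, and the labels do not say whether either is 1 clone or a pool. Separate cultures are not stated for the replicates, and p-values therefore reflect only how far these libraries spread, which may be technical.

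The integrated stress response slows protein synthesis when eIF2 kinases sense a shortage of amino acids, unfolded protein in the ER or other stress, and at the same time favours translation of the Atf4 mRNA. ATF4 then raises genes for amino acid synthesis and uptake, and under lasting stress the factor CHOP, encoded by Ddit3. Unfolded protein in the ER is sensed in parallel by PERK, IRE1 and ATF6. The last of these and XBP1, whose mRNA is spliced by IRE1, raise the chaperones, disulfide isomerases and degradation factors of the ER. ATF4 is controlled largely by translation and XBP1 by splicing, neither of which is read by the level of a whole mRNA.

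Sequences that define the perturbation and the promoters of the members come first. The mature miR-9-5p, from RefSeq (GRCm38.p6), is shown with its seed, bases 2 to 8, in capitals, because the seed fixes which sites were searched in the members. It is encoded on the plus strand by Mir9-1 (chr3:88215613-88215635), Mir9-2 (chr13:83738821-83738843) and Mir9-3 (chr7:79505279-79505301).
miR-9-5p: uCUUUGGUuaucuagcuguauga
The ER stress response element, CCAAT and CCACG with 9 bases of any kind between them, is the site through which ATF6 is known to act together with NF-Y. Searched on both strands of RefSeq promoters (GRCm38.p6) from 250 bases before to 50 bases after the gene start, it was present in 0.119% of all 32851 promoters, in 0.136% of those of tested genes and in 7 of the 14 ER members with a promoter entry (50.0%). No promoter entry was used for Atf6, Hyou1 and Manf. The 250 bases before the start are shown, 5′ to 3′ on the gene's strand and with the fixed letters of the element in capitals, for 3 chaperone genes. Of the members with the element Hspa5 had the lowest and Canx the highest log2 fold change, and Hsp90b1 held 2 copies.
Hspa5 (chr2:34771840-34772089, plus strand): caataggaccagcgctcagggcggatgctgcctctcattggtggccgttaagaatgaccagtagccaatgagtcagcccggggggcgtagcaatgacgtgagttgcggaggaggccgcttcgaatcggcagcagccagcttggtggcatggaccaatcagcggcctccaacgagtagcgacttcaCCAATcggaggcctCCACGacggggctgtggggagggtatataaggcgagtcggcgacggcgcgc
Hsp90b1 (chr10:86705445-86705694, minus strand): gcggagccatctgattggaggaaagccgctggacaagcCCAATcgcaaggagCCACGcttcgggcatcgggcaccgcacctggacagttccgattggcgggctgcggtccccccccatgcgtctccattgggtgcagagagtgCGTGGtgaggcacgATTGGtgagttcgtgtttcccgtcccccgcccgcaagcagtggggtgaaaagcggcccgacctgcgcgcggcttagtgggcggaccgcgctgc
Canx (chr11:50325674-50325923, minus strand): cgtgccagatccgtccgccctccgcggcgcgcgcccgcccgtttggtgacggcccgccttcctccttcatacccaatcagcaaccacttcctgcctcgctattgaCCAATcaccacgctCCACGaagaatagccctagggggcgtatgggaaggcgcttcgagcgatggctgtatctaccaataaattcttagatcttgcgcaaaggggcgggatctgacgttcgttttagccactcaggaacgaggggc
The second copy in Hsp90b1 is on the opposite strand. The element of the other 4 members is shown alone, read in the direction of the motif.
Calr (chr8:84847075-84847093, plus strand): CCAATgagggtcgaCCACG
Creld2 (chr15:88819520-88819538, minus strand): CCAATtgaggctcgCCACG
Pdia6 (chr12:17266491-17266509, plus strand): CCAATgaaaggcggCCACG
Syvn1 (chr19:6046532-6046550, plus strand): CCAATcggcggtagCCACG
The composite element bound by ATF4 with C/EBP factors, TGATGNAAN, was present in 3.95% of all promoters, in 2.09% of the 11775 promoters of tested genes and in 6 of the 18 ATF4 members with an entry (33.3%), against none of these 18 for the ER stress response element. No promoter entry was used for Aldh1l2, Slc1a5 and Slc7a5. It is shown in the direction of the motif, with its fixed letters in capitals.
Asns (chr6:7693224-7693232, minus strand): TGATGaAAc
Atf3 (chr1:191183436-191183444, plus strand): TGATGcAAg
Chac1 (chr2:119351048-119351056, minus strand): TGATGcAAc
Nupr1 (chr7:126625573-126625581, plus strand): TGATGcAAt
Slc1a4 (chr11:20332710-20332718, plus strand): TGATGcAAc
Trib3 (chr2:152344039-152344047, plus strand): TGATGtAAa
Of the ER members, Herpud1 alone held it. The members were listed because they belong to these responses, so the shares of both elements are description and no test. A match is a stretch of letters and was not tested as a site of binding, and its absence says only that these letters are not in the window.

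Values were TPM, the number of transcripts scaled to a fixed total in each library and corrected for length. TPM keeps no record of sequencing depth, which is unknown here. A library had 20123 to 20538 genes above 0. The precursor genes Mir9-1, Mir9-2 and Mir9-3 were listed at 0 in all libraries. C130071C03Rik, a transcript whose annotated gene spans Mir9-2, had 1.96, 1.77 and 1.99 TPM in in9 and 1.64, 1.74 and 1.73 TPM in LV2, every in9 library above LV2. Mature miR-9 is not measured by messenger RNA sequencing, and the knockdown was not checked. All 6 markers of mammary epithelium reached a mean TPM of 1, with a summed TPM of 2044.13 to 2079.99 in in9 and 2149.71 to 2169.06 in LV2. Of the markers of other cells, 1 of 5 fibroblast, 1 of 5 immune and 1 of 3 endothelial genes did so. The summed TPM of fibroblast markers was 7.95 to 8.43 in in9 and 4.74 to 6.70 in LV2, and Lum was at 0 throughout. That of immune markers was 33.64 to 40.56 in in9 and 27.63 to 28.89 in LV2, nearly all from Cd68, with Adgre1 at 0 throughout and Ptprc at no more than 0.12. That of endothelial markers was 1.97 to 2.17 in in9 and 1.71 to 1.95 in LV2. Their part in the results was not tested. On the first principal component of all tested genes in9 replicate 1 scored -2.70, in9 replicates 2 and 3 scored 26.1 and 27.8, and LV2 scored -22.2 to -6.98. In9 replicate 1 thus lay nearer to LV2, and results are given with and without it where they differ. That library was singled out from these same values, and leaving it out favours a difference between the groups. The share of all tested genes with an adjusted p below 0.05 in limma then rose from 1.01% to 10.5%. Calls without it are therefore no independent support.

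No member of either branch was called different between in9 and LV2. Calls required a Benjamini-Hochberg adjusted p below 0.05 in limma, a linear model of log2(TPM + 1) over the 13406 genes that averaged 1 TPM or more. Over all tested genes 1.01% were called, 0.821% higher and 0.194% lower in in9. Of the ATF4 branch 20 of 21 members were tested and none was called, the smallest adjusted p in limma being 0.103 for Ppp1r15a. Of the ER branch all 17 were tested and none was called, the smallest being 0.0968 for Canx. At an unadjusted p under 0.05 in limma, 6 ATF4 members were lower and none higher in in9, against 5.86% of all genes lower and 13.6% higher. In the ER branch 2 were lower (Hspa5 and Manf) and 2 higher (Canx and Pdia4). The 6 ATF4 members were Atf4, Asns, Psat1, Slc7a5, Slc1a5 and Ppp1r15a. No member was called after trimmed-mean scaling (0.53% of all genes), after quantile normalization (1.02%) or with the replicate number as a block (0.0149%). The 95% interval of the fold change lay within 1.5-fold of no change in either direction for 18 of 20 ATF4 members, other than Cebpb and Ddit3, and for 17 of 17 ER members.

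The median log2 fold change was -0.07 in the ATF4 branch and 0.04 in the ER branch, against 0.06 over all tested genes. Per library, as the median difference from the LV2 mean, the ATF4 branch was at -0.07, -0.04 and -0.10 in in9 and 0.07, -0.01 and -0.06 in LV2. The ER branch was at 0.01, 0.06 and 0.06 in in9 and 0.05, -0.02 and -0.03 in LV2. The groups overlapped in both branches. After trimmed-mean scaling, which centres the libraries on each other, the medians were -0.15, -0.03 and -0.01. The sign of the ER branch thus turned while that of the ATF4 branch did not. That scaling applies 1 factor to each library, so the turn is part of a downward shift shared by all tested genes. Quantile normalization gave -0.08, -0.0079 and -0.0037. All 3 in9 libraries lay below all 3 LV2 libraries for 7 of 20 ATF4 members (35.0%), where 8.08% of all tested genes did so, and above them for 1 (5.0%), where 17.4% did so. For ER members the counts were 1 of 17 below and 3 above (5.88% and 17.6%), near those shares. After trimmed-mean scaling 9 ATF4 members lay below and none above, against 13.4% and 11.8% of all genes, and 4 ER members lay below and 2 above. After that scaling the ATF4 count was not particular to the members. Of 18 cytosolic tRNA synthetases, a list from these pathways described below, 8 then lay below and none above. As deposited, 2 of these 18 lay below and 1 above. The composition of the RNA moved with the group as well. Mitochondrial transcripts held 6.42% to 7.64% of TPM in in9 and 5.90% to 6.01% in LV2, and ribosomal protein genes 10.1% to 12.0% in in9 and 12.3% to 13.0% in LV2. Neither share overlapped, in9 replicate 1 was nearest to LV2 in both, and their part in these counts was not tested.

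**Figure D1:**
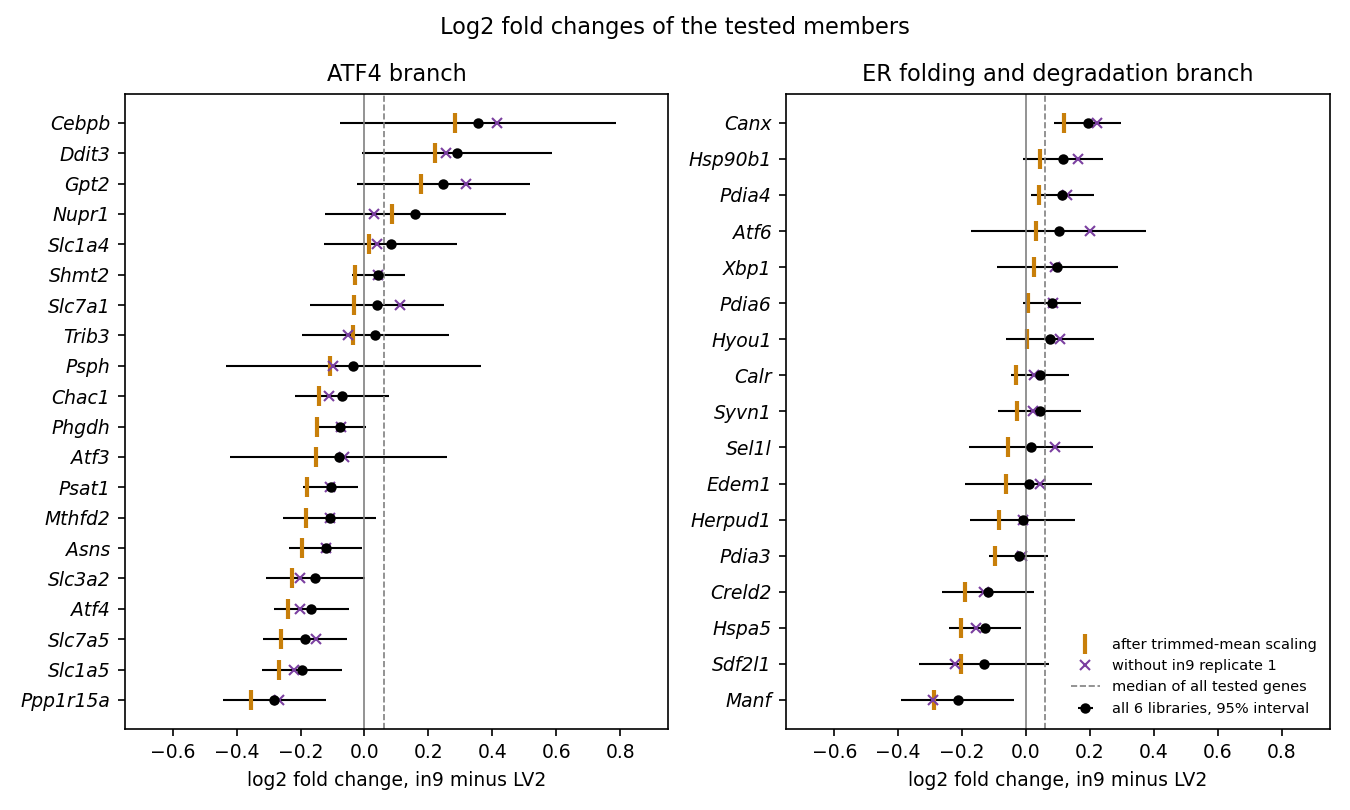
Log2 fold changes of the tested members (horizontal axis, in9 minus LV2) with their 95% intervals in limma, for the ATF4 branch (left) and the ER branch (right). The dashed line marks the median of all tested genes at 0.06, orange bars the values after trimmed-mean scaling and crosses the values without in9 replicate 1. The ATF4 members run from -0.28 for Ppp1r15a to 0.36 for Cebpb, and the ER members from -0.21 for Manf to 0.19 for Canx.

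Among the regulators of the ATF4 branch, Atf4 itself was the most abundant. It had 217.75, 202.92 and 200.95 TPM in in9 and 241.91, 228.12 and 227.87 TPM in LV2. Every in9 library was below every LV2 library, with a mean of 207 ± 9.18 TPM in in9 and 233 ± 8.03 TPM in LV2 (SD, n = 3 each). Its log2 fold change of -0.17 ± 0.05 (SE) had an adjusted p of 0.148 in limma. Without in9 replicate 1 it was -0.20 with an adjusted p of 0.0379 in limma, where 10.5% of all genes were called, 3.68% lower. When another library was left out, the adjusted p of Atf4 in limma was 0.273 to 0.361. In RNA from whole cultures, less Atf4 mRNA per cell and fewer cells that express it cannot be told apart.

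The other regulators did not share this pattern. Ddit3, the gene of the pro-apoptotic factor CHOP, had 16.39, 17.61 and 13.13 TPM in in9 and 11.42, 13.72 and 12.72 TPM in LV2. The groups overlapped in 1 library each, and the log2 fold change was 0.29 ± 0.12 (SE), adjusted p = 0.268 in limma. A second identifier with the symbol Ddit3, of 105 bases and overlapping the first on chromosome 10, was listed at 0 in all libraries, and the values here are those of the first. Cebpb, the gene of the basic leucine zipper factor C/EBP beta, had 30.49, 27.69 and 43.26 TPM in in9 and 25.71, 29.78 and 22.22 TPM in LV2. Its log2 fold change of 0.36 ± 0.18 was the highest of the branch, with an adjusted p of 0.334 in limma, and in9 replicate 3 was far above the other libraries. Of the in9 libraries 2 were above every LV2 library and 1 was not. Atf3, a stress-induced repressor, was at 22.24 to 29.20 TPM in in9 and 24.34 to 32.19 TPM in LV2, and both groups overlapped. Trib3, a pseudokinase that restrains ATF4 and CHOP, was at 23.91 to 29.49 TPM in in9 and 23.69 to 27.48 TPM in LV2, again with overlap. Nupr1, a small stress-induced chromatin protein, had 93.35 TPM in in9 replicate 1 against 70.50 and 71.35 TPM in the other in9 libraries and 66.60 to 75.54 TPM in LV2, and its log2 fold change of 0.16 was 0.03 without that library.

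Ppp1r15a encodes GADD34, the phosphatase subunit that reverses eIF2 phosphorylation and so ends the response. It had 31.83, 34.41 and 31.16 TPM in in9 and 42.16, 39.24 and 37.68 TPM in LV2. The groups did not overlap, and the difference of -18.2% was the lowest in either branch (log2 fold change -0.28 ± 0.07 SE, adjusted p = 0.103 in limma). With libraries weighted by their agreement, where 12.6% of all genes were called (8.7% higher and 3.9% lower), its adjusted p in limma was 0.0452. In9 replicate 1 had the lowest weight, 0.308 against 0.837 to 1.99 for the other libraries. Like leaving that library out, this setting is therefore no independent support. Without in9 replicate 1 the adjusted p of Ppp1r15a in limma was 0.0778, against 0.202 to 0.297 when another library was left out. Chac1, which degrades glutathione, was at 36.36 to 41.25 TPM in in9 and 39.92 to 41.62 TPM in LV2 and overlapped.

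The enzymes of serine synthesis were abundant, and the first steps had slightly lower values in in9. Phgdh, which commits glycolytic 3-phosphoglycerate to serine, had 400.16, 396.06 and 405.18 TPM in in9 and 421.52, 419.28 and 425.23 TPM in LV2. Psat1, the transaminase of the next step, had 221.60, 221.87 and 220.85 TPM in in9 and 239.15, 242.85 and 233.42 TPM in LV2. Neither pair of groups overlapped, and the differences were only -5.10% and -7.14% (adjusted p = 0.276 and 0.187 in limma). After quantile normalization the log2 fold change of Phgdh was -0.01. Psph, the phosphatase that releases serine, followed the replicate number and not the group: replicate 2 had 39.26 TPM in in9 and 40.03 TPM in LV2, whereas the other libraries had 52.66 and 53.95 TPM in in9 and 53.76 and 55.76 TPM in LV2. Nothing in the labels says that libraries of 1 number were handled together, and over all tested genes the deviations of same-numbered libraries correlated at -0.10, 0.02 and -0.05.

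Asparagine synthetase, Asns, whose promoter held the ATF4 element printed above, had 146.17, 148.85 and 143.92 TPM in in9 and 168.20, 154.31 and 155.45 TPM in LV2. The groups did not overlap and the difference was -8.16% (log2 fold change -0.12 ± 0.05 SE, adjusted p = 0.236 in limma). The mitochondrial one-carbon enzymes took no common direction. Shmt2, which splits serine to glycine, had 226.62, 223.71 and 229.61 TPM in in9 and 217.46, 221.43 and 220.64 TPM in LV2, the 1 ATF4 member with all in9 libraries above LV2, by 3.09%, a sign that turned after trimmed-mean scaling (log2 fold change -0.03). Mthfd2, which oxidises the one-carbon unit, was at 74.17 to 84.46 TPM in in9 and 83.28 to 88.58 TPM in LV2. Aldh1l2, which oxidises formyl-tetrahydrofolate in mitochondria, was at 0.17 to 0.35 TPM in in9 and 0.17 to 0.52 TPM in LV2 and was below the minimum for testing. Gpt2, the mitochondrial alanine transaminase, had 12.25, 13.99 and 14.72 TPM in in9 and 13.06, 10.56 and 10.51 TPM in LV2 (log2 fold change 0.25 ± 0.11 SE, adjusted p = 0.291 in limma).

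Of the amino acid transporters, the 3 most abundant had lower values in in9 and the 2 least abundant did not. Slc1a5, the glutamine carrier ASCT2, had 141.01, 137.90 and 130.10 TPM in in9 and 163.10, 155.93 and 149.53 TPM in LV2, without overlap (log2 fold change -0.19 ± 0.05 SE, adjusted p = 0.129 in limma). Slc7a5, the large neutral amino acid carrier LAT1, had 85.25, 91.93 and 91.15 TPM in in9 and 106.55, 102.16 and 97.18 TPM in LV2, also without overlap (-0.19 ± 0.05, adjusted p = 0.145 in limma). Its heavy chain, Slc3a2, had 200.17, 179.03 and 182.24 TPM in in9 and 223.14, 202.51 and 199.08 TPM in LV2, where in9 replicate 1 exceeded 1 LV2 library. The difference in means was -12.3% for the Slc7a5 chain of this dimer and -10.1% for the Slc3a2 chain. The cationic carrier Slc7a1, at 33.64 to 39.94 TPM in in9 and 33.68 to 39.08 TPM in LV2, and the alanine and serine carrier Slc1a4, at 10.86 to 12.20 TPM in in9 and 10.03 to 11.69 TPM in LV2, overlapped.

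**Figure D2:**
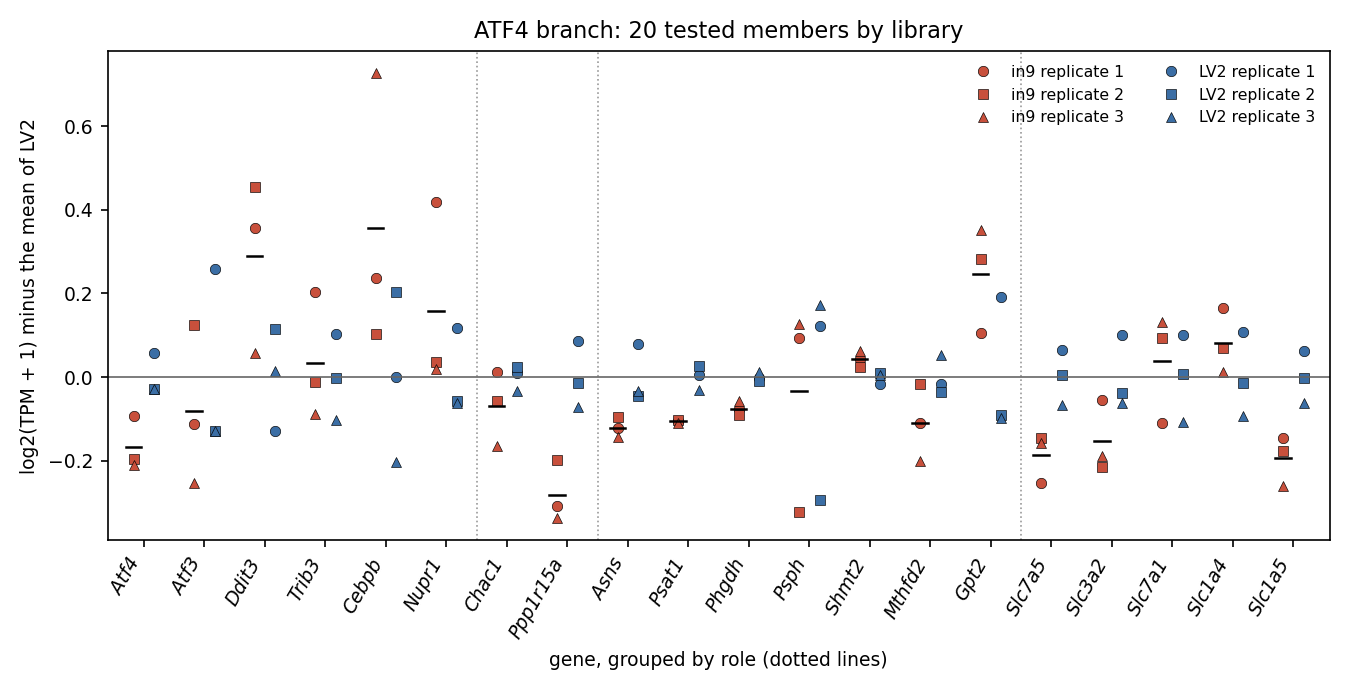
Each library of the 20 tested ATF4 members as log2(TPM + 1) minus the LV2 mean (vertical axis), in9 in red at the left and LV2 in blue at the right of each gene, with a bar at the in9 mean and dotted lines between roles. The in9 libraries sit below LV2 for Atf4, Ppp1r15a, Asns, Psat1, Phgdh, Slc7a5 and Slc1a5, and replicate 2 of both groups is low for Psph.

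In the ER branch the chaperone genes included the most abundant members and pointed in both directions. Hspa5 encodes BiP, the HSP70 chaperone that also holds the stress sensors inactive. It had 835.94, 794.34 and 778.68 TPM in in9 and 919.08, 854.31 and 860.17 TPM in LV2. It was the 1 ER member with every in9 library below every LV2 library, by -8.53% on the means (log2 fold change -0.13 ± 0.05 SE, adjusted p = 0.212 in limma). Hsp90b1 encodes GRP94, the ER form of HSP90, and its promoter held 2 copies of the element that Hspa5 held once. It had 469.19, 518.73 and 517.31 TPM in in9 and 476.32, 460.91 and 450.11 TPM in LV2. In9 replicate 1 lay within the LV2 range and the other in9 libraries above it (0.12 ± 0.05, adjusted p = 0.283 in limma, and 0.16 with an adjusted p of 0.0414 without in9 replicate 1). When another library was left out, the adjusted p of Hsp90b1 in limma was 0.321 to 0.551.

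Manf, a secreted ER protein that binds BiP, was close to the abundance of Canx and had 362.48, 314.04 and 304.55 TPM in in9 and 388.93, 387.22 and 359.48 TPM in LV2. The groups overlapped only through in9 replicate 1 and LV2 replicate 3, and the log2 fold change was -0.21 ± 0.07 (SE), adjusted p = 0.194 in limma. Without in9 replicate 1 it was -0.29 with an adjusted p of 0.0275 in limma, against 0.333 to 0.436 when another library was left out. Sdf2l1, a partner of the ER J-domain proteins, had 35.16 TPM in in9 replicate 1, above every LV2 library (33.51 to 34.34 TPM), and 28.65 and 29.35 TPM in the other in9 libraries, below every LV2 library. Its adjusted p in limma was 0.429 with that library, 0.0462 without it and 0.498 to 0.744 when another library was left out. Creld2, a secreted ER stress protein, was at 48.29 to 52.25 TPM in in9 and 51.83 to 57.41 TPM in LV2. Hyou1, a large HSP70 that acts as exchange factor for BiP, was at 75.09 to 83.05 TPM in in9 and 71.45 to 77.49 TPM in LV2. Both overlapped.

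Of the lectin chaperones, which hold glycoproteins until they fold, the membrane-bound Canx differed more than its soluble relative Calr. Canx had 319.20, 339.10 and 339.87 TPM in in9 and 297.89, 292.85 and 281.85 TPM in LV2. The groups did not overlap, and the difference of 14.4% was the largest positive one among ER members (log2 fold change 0.19 ± 0.04 SE, adjusted p = 0.0968 in limma, and 0.12 after trimmed-mean scaling with an adjusted p of 0.166). Without in9 replicate 1 the adjusted p in limma was 0.0261, against 0.182 to 0.286 when another library was left out. Calr had 644.42, 634.25 and 604.99 TPM in in9 and 605.60, 609.21 and 612.28 TPM in LV2, where in9 replicate 3 was below every LV2 library and the other in9 libraries above. Calr had the smallest spread in LV2 of all members, with a coefficient of variation of 0.549%.

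The protein disulfide isomerases form and rearrange disulfide bonds. Pdia4 had 94.76, 99.42 and 95.32 TPM in in9 and 89.16, 88.28 and 89.83 TPM in LV2. Pdia6 had 267.71, 270.88 and 267.59 TPM in in9 and 262.31, 250.24 and 249.47 TPM in LV2. Both had every in9 library above LV2, with log2 fold changes of 0.11 ± 0.04 and 0.08 ± 0.04 (SE) and adjusted p-values of 0.209 and 0.299 in limma. After trimmed-mean scaling these were 0.04 and 0.01. Pdia3, the isomerase that works with the lectin chaperones, was at 268.80 to 280.42 TPM in in9 and 271.85 to 282.50 TPM in LV2.

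The degradation genes differed little. Herpud1, which organises the ligase complex, was at 52.57 to 53.80 TPM in in9 and 49.75 to 58.69 TPM in LV2. Sel1l, the adaptor of that complex, was at 22.22 to 26.64 TPM in in9 and 23.98 to 25.45 TPM in LV2, and Syvn1, its ligase HRD1, was at 27.75 to 29.22 TPM in in9 and 26.71 to 28.02 TPM in LV2. Edem1, a lectin that hands over misfolded glycoproteins, was at 21.19 to 24.26 TPM in in9 and 20.33 to 23.19 TPM in LV2. All 4 overlapped, with log2 fold changes between -0.01 and 0.04 that were all negative under trimmed-mean and quantile scaling. Of the transcription factors, Xbp1 had 69.58, 69.94 and 66.96 TPM in in9 and 72.39, 60.09 and 60.93 TPM in LV2, with LV2 replicate 1 above every in9 library. Atf6 had 23.97, 29.35 and 29.68 TPM in in9 and 28.95, 24.91 and 23.22 TPM in LV2, so that replicate 1 of each group lay among the libraries of the other. Neither was called in limma (adjusted p = 0.523 and 0.650).

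**Figure D3:**
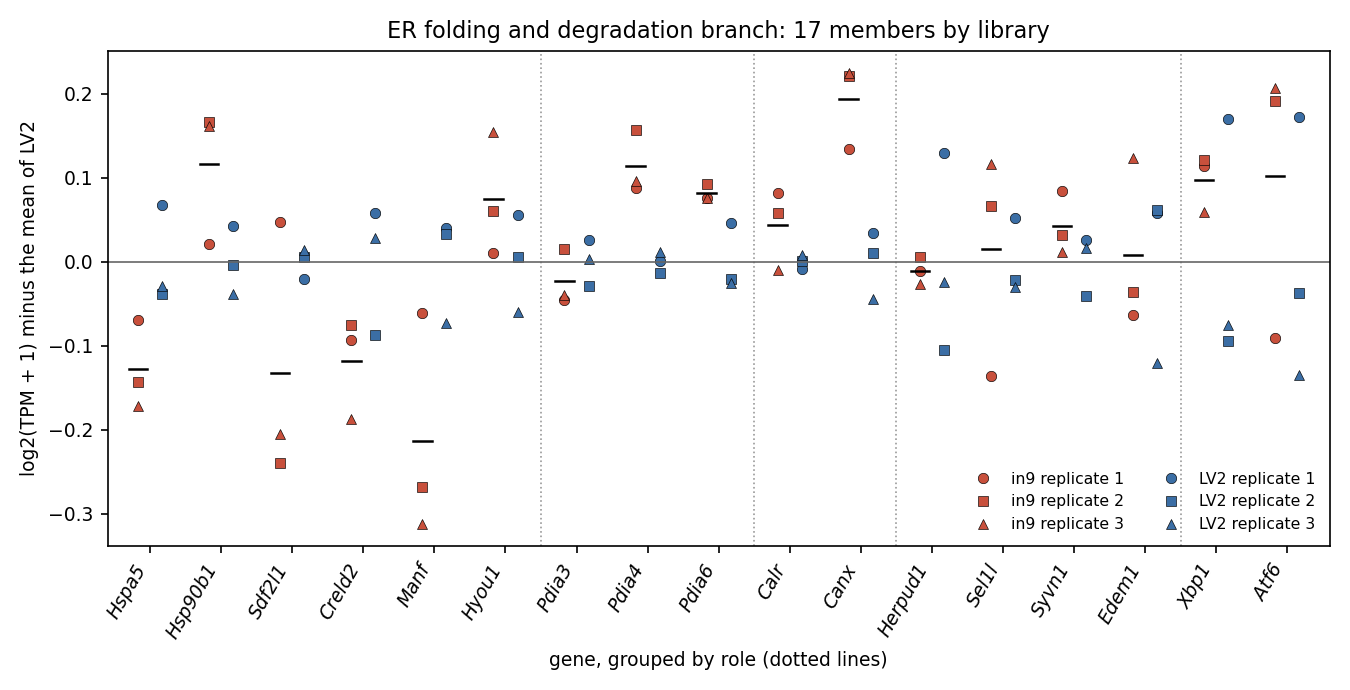
Each library of the 17 ER members as log2(TPM + 1) minus the LV2 mean (vertical axis), in9 in red at the left and LV2 in blue at the right of each gene, with a bar at the in9 mean. Canx, Pdia4 and Pdia6 have all in9 libraries above LV2 and Hspa5 all below, while in9 replicate 1 lies apart from replicates 2 and 3 for Hsp90b1, Sdf2l1, Manf, Sel1l and Atf6.

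**Figure D4:**
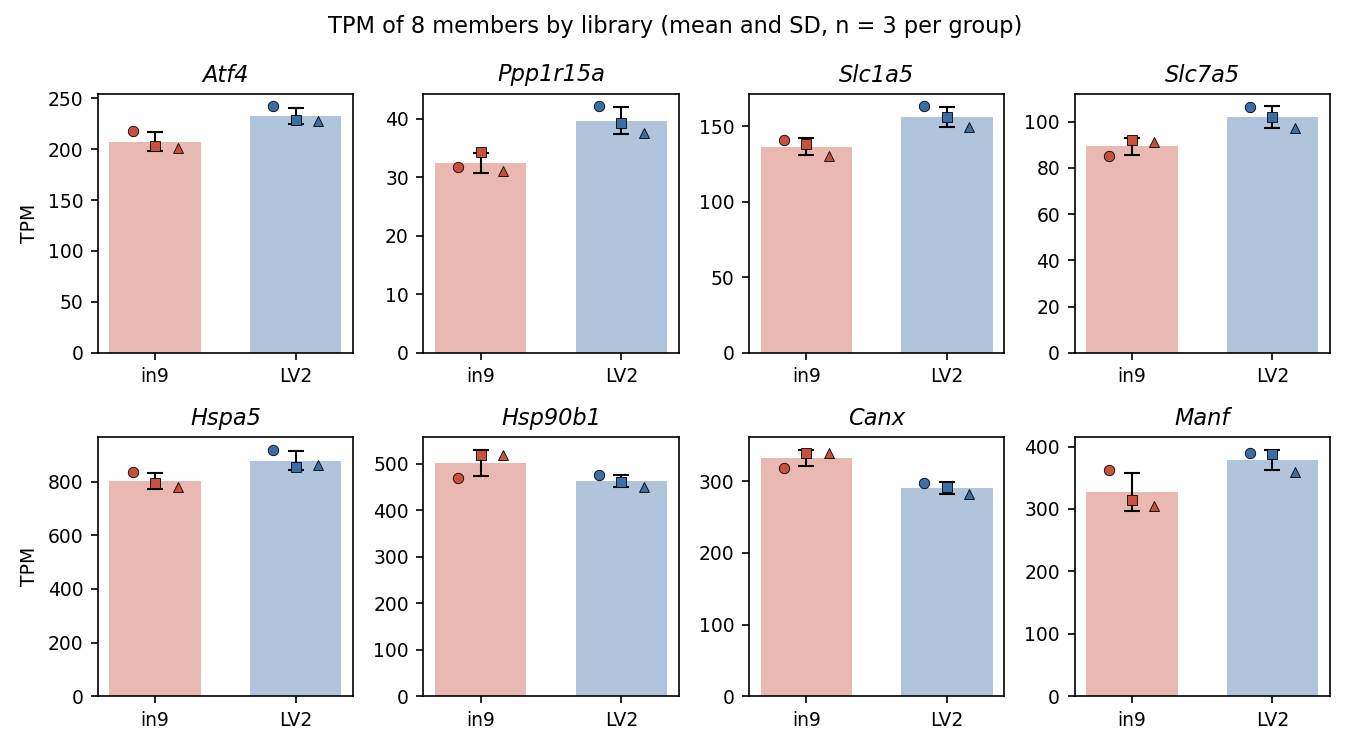
TPM of 8 members by library, with bars at the group mean and error bars of 1 SD (n = 3 each), in9 at the left and LV2 at the right of each panel. The differences are small beside the levels: the means of Atf4 are 207 in in9 and 233 TPM in LV2, and those of Canx 333 in in9 and 291 TPM in LV2.

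Members that shared a promoter element did not share a direction. Of the 7 ER members with the ER stress response element, 5 had a positive and 2 a negative log2 fold change, from -0.13 for Hspa5 to 0.19 for Canx, and after trimmed-mean scaling 3 were positive and 4 negative. Of the 6 ATF4 members with the composite element 3 were positive and 3 negative, from -0.12 for Asns to 0.16 for Nupr1, and 2 and 4 after trimmed-mean scaling. None of these 13 was called in limma. Of all 13406 tested genes 8543 had a positive log2 fold change, and 6459 had one after trimmed-mean scaling.

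Matches to the miR-9-5p seed in the longest annotated 3′ UTR (GENCODE M21, protein-coding transcripts) were found in members about as often as in other genes. They were found as 7 bases (ACCAAAG, or CCAAAGA with A opposite the first base) or as both joined to 8 bases in 9 of 38 members (23.7%), against 22.2% of 10952 tested genes with such a UTR. The 9 were Atf3, Trib3, Mthfd2, Slc7a1 and Gpt2 in the ATF4 branch and Sel1l, Edem1, Atf6 and Hyou1 in the ER branch. Mthfd2 held the only 8-base match among the members, in its 3′ UTR on the minus strand, shown in capitals because it is the longest of these matches.
Mthfd2 (chr6:83305861-83305890, mm10, minus strand): cagctcgtgccACCAAAGAactgtcagcag
Of these 9 members 7 had a positive log2 fold change, from -0.11 for Mthfd2 to 0.25 for Gpt2, and 3 had one after trimmed-mean scaling. So did 8543 of all 13406 tested genes as deposited and 6459 after that scaling. In9 and LV2 overlapped for all 9, and none was called in limma.

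Other genes of these pathways, taken from lists that were chosen with earlier results of these data known, gave 1 call. Of 16 tested further ATF4 targets (22 listed), Ddit4, the inhibitor of the growth kinase complex mTORC1, was higher, with 45.41, 43.23 and 42.09 TPM in in9 and 35.09, 33.09 and 32.81 TPM in LV2 (log2 fold change 0.36, adjusted p = 0.0473 in limma). Its adjusted p in limma was 0.105 after trimmed-mean scaling, 0.0283 without in9 replicate 1 and 0.117 to 0.218 when another library was left out. Ddit4 is also raised by hypoxia and glucocorticoids. At an unadjusted p under 0.05 in limma, 4 other targets of that list were lower, and none but Ddit4 was higher. Of all tested genes 5.86% were lower and 13.6% higher by that rule. Pycr1 of proline synthesis had 4.68 ± 0.231 TPM in in9 and 6.57 ± 0.434 TPM in LV2, and Cth of cysteine synthesis had 9.48 ± 0.615 TPM in in9 and 12.3 ± 0.956 TPM in LV2 (SD, n = 3 each). Both were chosen after their values were seen. The median log2 fold change of the list was 0.02, against 0.06 over all tested genes.

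No gene of the remaining lists was called in limma. Counts at an unadjusted p under 0.05 in limma stand beside 5.86% of all tested genes lower and 13.6% higher. Among 12 genes of the eIF2 arm 2 were lower and 1 higher. The lower ones were Eif2b3, with 52.17, 44.81 and 46.62 TPM in in9 and 58.30, 55.44 and 56.09 TPM in LV2, and Eif2b1, at 33.3 ± 1.43 TPM in in9 and 39.0 ± 3.25 TPM in LV2 (SD, n = 3 each). Both are subunits of the exchange factor that phosphorylated eIF2 inhibits. Eif2ak3 stood in this list and also in that of other sensors and degradation genes below. Of 18 cytosolic tRNA synthetases 1 was lower and none higher, and 4 were lower after trimmed-mean scaling, where 10.9% of all genes were lower. The 1 was Tars, at 122 ± 3.84 TPM in in9 and 137 ± 2.82 TPM in LV2. Of 31 other genes of ER folding and translocation 3 were lower and 2 higher. The prolyl isomerase Fkbp11 had 94.71, 83.62 and 81.08 TPM in in9 and 108.87, 108.70 and 101.96 TPM in LV2, and the oxidase Ero1l, which recharges the disulfide isomerases and also responds to hypoxia, had 98.13, 120.43 and 131.99 TPM in in9 and 93.06, 86.38 and 84.12 TPM in LV2. Of 24 tested other sensors and degradation genes (26 listed) 5 were higher and none lower at an unadjusted p below 0.05 in limma, where 13.6% of all genes were higher and 5.86% lower. By unadjusted p this split was not kept: 1 was higher and 2 lower after trimmed-mean scaling (8.56% and 10.9% of all genes), and 1 higher and 1 lower after quantile normalization (9.34% and 9.17%). All in9 libraries lay above all LV2 libraries for 6 of the 24 before and after trimmed-mean scaling (17.4% and 11.8% of all genes). They lay below for 1 before and 3 after it (8.08% and 13.4%). Among the 5 higher on the deposited scale were Mbtps1, the protease that cuts ATF6, at 65.2 ± 2.52 TPM in in9 and 57.4 ± 1.83 TPM in LV2, and Os9, a lectin of ER degradation, at 39.8 ± 1.21 TPM in in9 and 34.6 ± 1.63 TPM in LV2 (SD, n = 3 each). The median log2 fold changes of these 4 lists were 0.03, 0.01, 0.00 and 0.09 in this order.

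For 10 of 17 ER members (58.8%) in9 replicates 2 and 3 both lay outside the LV2 range on the same side, near the 50.6% of all tested genes, and for 6 of those (Hsp90b1, Sdf2l1, Sel1l, Atf6, Manf and Hyou1) replicate 1 did not. For the ATF4 branch the numbers were 11 of 20 (55.0%) and 3 (Chac1, Slc3a2 and Gpt2). Over all tested genes replicate 1 was the exception in this way for 25.1%, against 35.3% of ER and 15.0% of ATF4 members. Without it Canx and Hsp90b1 were called higher and Manf and Sdf2l1 lower in limma, as was Atf4, where 10.5% of all genes were called, 6.77% higher and 3.68% lower. With that library left out and trimmed-mean scaling added, a setting chosen after the data were seen, no member was called higher. Then 7 ATF4 members (Atf4, Asns, Psat1, Slc7a5, Slc3a2, Slc1a5 and Ppp1r15a) and 3 ER members (Hspa5, Sdf2l1 and Manf) were called lower, where 9.36% of all genes were called, 3.01% higher and 6.35% lower. Why this library differs was not tested.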

How the data were processed

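Messenger RNA libraries of 4T1 cells, 3 labelled in9 and 3 labelled LV2, were analysed from 1 table. Its values are TPM as deposited by the authors, with 2 decimals, for 56448 genes. The build was mm10 per the submitters' processing notes, and aligner, quantifier and annotation were not given in the sources used here. The authors' mean columns equalled the library means within 3.33e-05. Gene length is given in the deposited table and was not used in a test. The members and lists were chosen with earlier results of these data known.

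Genes averaging 1 TPM or more were fitted as log2(TPM + 1) in limma 3.58.1 (R 4.3.3) with an intensity trend, as in9 minus LV2, two-sided, with Benjamini-Hochberg adjustment over all 13406 genes. The fit was tested on simulated data. A fold change on this scale understates the change of low genes. Nothing in the labels says that the replicate numbers pair the samples, so no block was used. Trimmed-mean factors (30% of M and 5% of A values trimmed) were computed on TPM. Members were described with all 38 named. Of other lists, called genes were named, or otherwise the 2 with the smallest p. Of the tRNA synthetases only Tars was named, and Pycr1 and Cth were added after their values were seen. Where 2 identifiers shared a symbol the more abundant was used. Promoters and miRNA came from RefSeq (GRCm38.p6), gene models from GENCODE M21. Python 3.11.15 and pandas 2.3.3 prepared tables. Alternatives were a pseudocount of 0.1, no minimum or a mean TPM of 5, both scalings, no trend, library weights, a replicate block and leaving out each library.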

Additional observations from a re-analysis of the deposited data

How the results depend on the processing

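No ATF4 or ER member was called in limma as deposited, with a pseudocount of 0.1, no minimum, a minimum mean TPM of 5, either scaling, no intensity trend, the replicate block or when any library but in9 replicate 1 was left out. With library weights 3 ATF4 members were called, all lower, and 3 ER members (2 higher, 1 lower). In9 replicate 1 had the lowest of these weights (0.308). Leaving out 1 library gave 0 to 1 called ATF4 members and 0 to 4 called ER members, the highest of each without in9 replicate 1, and 7 and 3 without that library after trimmed-mean scaling. Of all tested genes 136 were called, 110 higher and 26 lower, against 46 and 25 (71) after trimmed-mean scaling, 30 with no minimum, 31 without the trend, 1689 with library weights and 5 to 1402 without 1 library (1255 without in9 replicate 1 after scaling, 404 higher and 851 lower). With the replicate block 2 genes of the table and no member were called. Over all tested genes same-numbered libraries did not deviate together. With so few libraries this cannot exclude a pairing, and the labels state none. Of the other pathway genes 1 was called, against 0 with no minimum, after either scaling, without the trend or with the replicate block, 12 with library weights, 0 to 10 without 1 library and 15 without in9 replicate 1 after scaling. The ATF4 median of -0.07 was -0.15 after trimmed-mean scaling, -0.19 when in9 replicate 1 was also left out and -0.087 to -0.019 without 1 library, the last without LV2 replicate 1. The ER median of 0.04 was -0.03 after trimmed-mean scaling, -0.0079 after quantile normalization, 0.035 to 0.054 without 1 library and -0.055 without in9 replicate 1 after scaling. Trimmed-mean scaling changes each library by 1 common factor, so it moved all members down by nearly the same log2 amount. The median of all tested genes likewise went from 0.06 to -0.01. The cause of the other shifts was not tested.

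Some members turned sign and were called on neither side. Under trimmed-mean scaling these turns are the common shift described above, in members whose log2 fold change was small. After trimmed-mean scaling the log2 fold change was -0.037 for Trib3, -0.030 for Shmt2, -0.034 for Slc7a1, -0.031 for Calr, -0.056 for Sel1l, -0.029 for Syvn1 and -0.063 for Edem1. After quantile normalization it was -0.038 for Trib3, -0.025 for Slc7a1, -0.019 for Slc1a4, -0.056 for Sel1l, -0.028 for Syvn1 and -0.062 for Edem1. With library weights it was 0.0037 for Atf3, -0.013 for Trib3 and 0.024 for Herpud1. With trimmed-mean scaling and in9 replicate 1 left out, values were -0.15 for Trib3, -0.0593 for Shmt2, -0.0545 for Slc1a4, -0.0737 for Nupr1, -0.0191 for Pdia6, -0.0789 for Calr, -0.00849 for Sel1l, -0.0783 for Syvn1, -0.0554 for Edem1 and -0.0121 for Xbp1. Leaving out 1 library gave a range of -0.183 to 0.0486 for Atf3, -0.0503 to 0.0955 for Trib3, -0.182 to 0.109 for Psph, -0.0161 to 0.112 for Slc7a1, -0.0633 to 0.0538 for Herpud1, -0.0346 to 0.0911 for Sel1l and -0.0519 to 0.0437 for Edem1.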

Other observations

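Within a library, the ratio of a pair of genes is not moved by a factor common to all its genes, such as trimmed-mean scaling, although quantile normalization can move it. These pairs were chosen after the values were seen and were not tested. The TPM of Hsp90b1 over that of Hspa5 was 0.561, 0.653 and 0.664 in in9 and 0.518, 0.54 and 0.523 in LV2, without overlap. That of Canx over Calr was 0.495, 0.535 and 0.562 in in9 and 0.492, 0.481 and 0.46 in LV2, also without overlap, with in9 replicate 1 closest to LV2 in both. That of Slc7a5 over its heavy chain Slc3a2 was 0.426, 0.514 and 0.5 in in9 and 0.478, 0.505 and 0.488 in LV2 and overlapped. That of Manf over Hspa5 was 0.434, 0.395 and 0.391 in in9 and 0.423, 0.453 and 0.418 in LV2 and overlapped as well. How often the ratios of other pairs of genes do not overlap was not computed.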
